A study of Mus musculus with 10 samples.

Results

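The genes described here encode heat shock proteins and related chaperones of the mouse inner ear. They were chosen by name, 10 genes in all: Hspa1a, Hspa1b, Hspa8, Hspa5, Hsp90aa1, Hsp90ab1, Hsph1, Hspb1, Dnajb1 and Hspd1. Of these, 7 were measured by a probe set that carries their symbol alone, among 29766 genes measured in this way. The study measured total RNA of powdered inner ear tissue, labelled as cochlea, on 10 arrays, 1 per sample. The samples came from CBA/CaJ mice, an inbred strain, 6 months old and described as having normal hearing. Each mouse lived alone. A running wheel was in the cage for 5 samples, called runners here, and was lacking for the other 5, called controls. The labels name no mutation or transgene, and give neither sex nor the distance run.

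Heat shock proteins hold other proteins in a foldable state, help them fold, or pass them on for degradation. Cells raise the inducible members through heat shock factor 1 (HSF1) when unfolded protein builds up in the cytosol, and raise the endoplasmic reticulum chaperones through the unfolded protein response. In the inner ear heat shock proteins are known for protecting hair cells against noise and ototoxic drugs, and exercise induces them in muscle.

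Every level below is a log2 value as deposited, and every difference is runner minus control on the log2 scale. Levels of different genes are not compared, because each probe set has its own brightness. Whether the 10 arrays hold 10 animals is not given in the labels, so the p-values cover only spread among samples, part of which may be technical. In whole tissue, fewer cells of a type and less RNA per cell cannot be told apart. Array medians lay between 5.35 and 5.43, and the correlation between arrays across genes was 0.995 to 0.997 within controls and 0.991 to 0.997 within runners. The mean of 12 hair cell genes lay between 5.35 and 5.50 in controls and between 5.14 and 5.51 in runners, all 12 genes being lower in runners on average and 3 of them at an unadjusted p under 0.05 (median difference -0.13). All 12 markers of supporting cells, stria vascularis and spiral ligament were lower, 9 at that level (median difference -0.32). Their mean lay between 6.79 and 7.02 in controls and between 6.44 and 7.02 in runners. Of 9 bone-forming cell markers 8 were lower, 7 at that level and 2 after adjustment over all genes (median difference -0.40), with means of 7.9995 to 8.22 in controls and 7.51 to 7.90 in runners. The mean of 12 skeletal muscle genes lay between 7.92 and 8.65 in controls and between 7.88 and 8.87 in runners. The mean of 7 brain genes lay between 9.17 and 9.39 in controls and between 9.05 and 9.60 in runners. Of these 6 were higher in runners and 1 lower, 0 at an unadjusted p under 0.05 (median difference 0.10). Over all genes, 50.5% had a higher mean in runners, and at that level 3.21% were higher and 3.92% lower.

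The promoters of 7 of the 10 genes were found in RefSeq (assembly GRCm38.p6) as windows of 250 bases before and 50 bases after a gene start. The 250 bases before the start are printed for 4 genes, because Hspa5 with Hsph1 and Hspa1a with Hspb1 were the 2 pairs whose levels varied together most closely across arrays. Sequences run 5′ to 3′ on the gene's own strand. Capitals mark GAANNTTC and TTCNNGAA, paired units of the heat shock element bound by HSF1, and in Hspa5 CCAAT followed by 9 bases and CCACG, the endoplasmic reticulum stress element.
Hspa1a, chr17:34972157-34972406, minus strand: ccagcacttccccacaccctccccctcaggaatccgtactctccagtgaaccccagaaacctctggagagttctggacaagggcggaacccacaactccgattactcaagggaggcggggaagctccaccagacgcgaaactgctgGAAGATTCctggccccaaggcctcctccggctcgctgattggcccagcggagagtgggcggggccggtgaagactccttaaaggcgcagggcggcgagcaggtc
Hspb1, chr5:135887669-135887918, plus strand: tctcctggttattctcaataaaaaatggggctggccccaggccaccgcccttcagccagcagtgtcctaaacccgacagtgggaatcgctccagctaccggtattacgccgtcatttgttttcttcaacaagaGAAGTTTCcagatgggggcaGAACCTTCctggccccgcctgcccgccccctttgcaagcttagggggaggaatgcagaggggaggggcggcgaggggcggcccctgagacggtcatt
Hspa5, chr2:34771840-34772089, plus strand: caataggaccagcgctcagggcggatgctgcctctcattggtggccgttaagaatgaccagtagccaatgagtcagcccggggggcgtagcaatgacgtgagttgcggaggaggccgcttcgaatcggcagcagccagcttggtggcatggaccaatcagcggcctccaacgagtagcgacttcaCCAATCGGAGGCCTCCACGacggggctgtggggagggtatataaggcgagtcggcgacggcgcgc
Hsph1, chr5:149636337-149636586, minus strand: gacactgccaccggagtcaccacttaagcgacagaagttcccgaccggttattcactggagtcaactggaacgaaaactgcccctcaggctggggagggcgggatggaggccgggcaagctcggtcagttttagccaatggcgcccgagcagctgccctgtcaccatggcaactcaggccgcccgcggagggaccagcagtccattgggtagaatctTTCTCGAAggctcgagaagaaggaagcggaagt

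Both strands of the whole windows were searched. A gene was counted if any of its windows matched (10 windows for the 7 genes), whereas the shares are per window. GAANNTTC was found for 5 of the 7 genes (Hspa1a, Hspa1b, Hspb1, Hsph1 and Hspd1) and in 7.86% of all 32851 promoter windows. TTCNNGAA was found for Hsph1 and Hspd1 and in 8.52% of all windows. A run of 3 alternating GAA and TTC units, each pair 2 bases apart and so overlapping both shorter motifs, was found for the same 2 genes and in 0.603% of all windows. In Hsph1 this run lies after the gene start, at position 287 of the window. The endoplasmic reticulum stress element was found for Hspa5, the gene best known for it, and in 0.119% of all windows. The windows of Dnajb1 held none of these letters. A match describes the letters only.

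Hspa1a and Hspa1b, near-identical neighbouring genes for the inducible Hsp70, have windows that differ at 4 of 300 bases, 98.67% identical. With the Hspa1a base first and positions counted from 1 at the 5′ end of the window, the substitutions are C44T, T47C, T249G and C276T. The RNAs are also near-identical, so a signal named Hspa1a may contain Hspa1b. Hspa1b has no probe set of its own. A probe set annotated to both genes had control and runner means of 7.11 ± 0.35 and 7.16 ± 0.51 (SD, n = 5 each), and followed the Hspa1a probe set across the 10 arrays with r = 0.993. Hspa8, the constitutive cytosolic Hsp70, is covered by 2 probe sets that are annotated to other genes too. They differed by -0.0085 (a probe set shared with 3 small nucleolar RNAs hosted in its introns) and 0.064 (shared with Gm15459). Hsp90ab1, the constitutive cytosolic Hsp90, is named by no probe set of the annotation used and is not analysed here.

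None of the 7 measured genes passed the test between runners and controls. At a limma adjusted p under 0.05, 0 of 7 were called, against 0.00672% of all genes (2 of 29766). At an unadjusted p under 0.05, 0 of 7 were called, against 7.13% of all genes (3.21% higher in runners and 3.92% lower). The groups overlapped for all 7, and across all genes they did not overlap for 0.927%. Hspa5, Hsp90aa1, Hsph1, Hspb1 and Hspd1 had a higher mean in runners, and Hspa1a and Dnajb1 a lower one. The median difference of the 7 was 0.036, beside 0.0009 over all genes. The median standard error of the 7 was 0.105, beside 0.0748 over all genes.

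**Figure D1:**
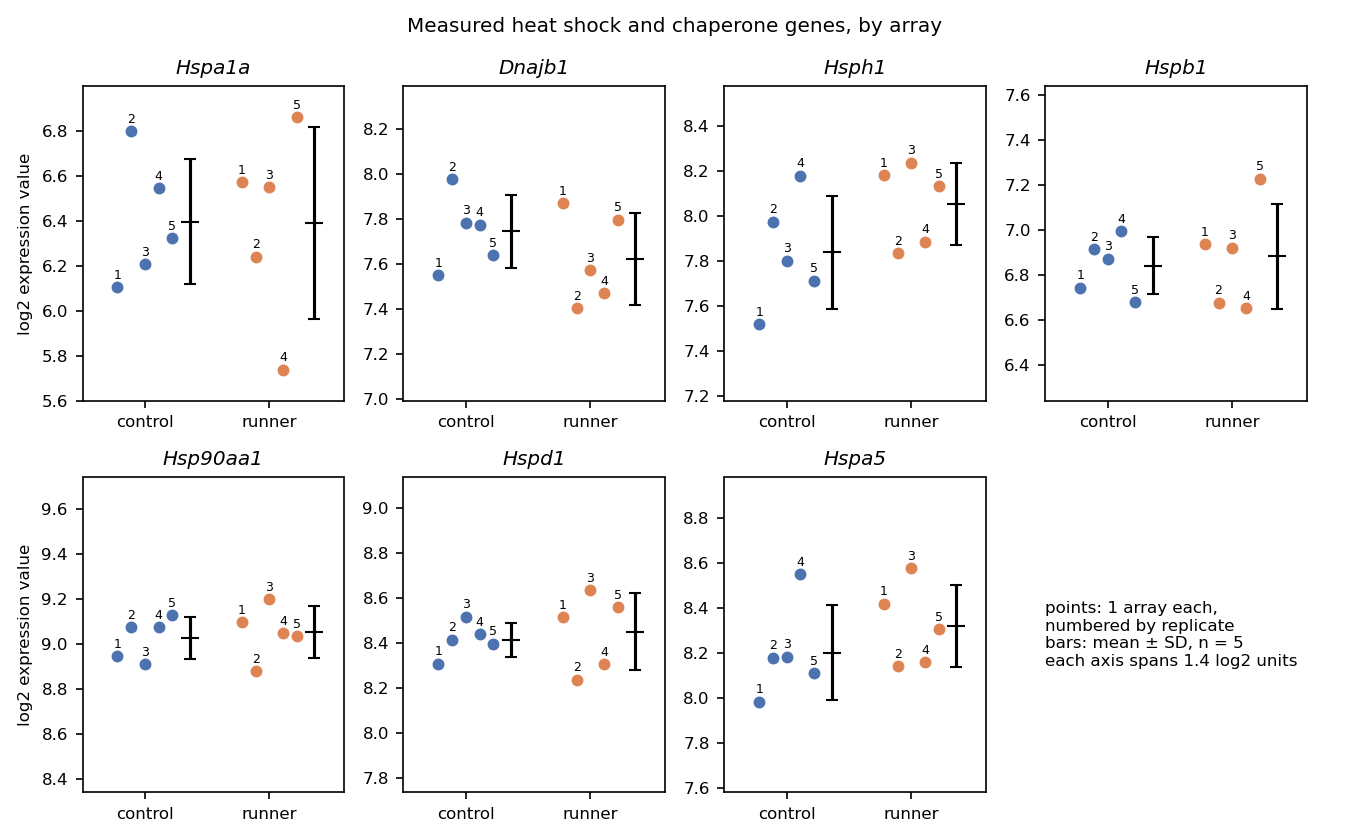
Log2 level (vertical axes, each spanning the same range) of the 7 measured genes in 5 control and 5 runner arrays; dots are arrays and bars are the group mean with its SD. The groups overlap in every panel, and Hspa1a has the widest spread, from 5.74 to 6.86.

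The inducible cytosolic Hsp70 is the classic readout of a heat shock response. Hspa1a was at 6.10, 6.80, 6.21, 6.55 and 6.32 in controls 1 to 5 and at 6.57, 6.24, 6.55, 5.74 and 6.86 in runners 1 to 5. Both the lowest and the highest array were runners, and the other arrays of both groups lay between them. The group means were 6.396 ± 0.28 (SD, n = 5) and 6.392 ± 0.43 (SD, n = 5), a difference of -0.0039 ± 0.19 (SE; limma adjusted p = 0.9987). The 95% interval, -0.41 to 0.40, still allows a change of 1.33-fold in the lower direction and nearly as large a change in the higher direction. The sign turned with median centring of the arrays (0.0196).

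Hsph1 encodes Hsp110, which releases ADP from Hsp70 and helps it dissolve aggregates. It was at 7.52, 7.97, 7.80, 8.18 and 7.71 in controls and at 8.18, 7.83, 8.24, 7.88 and 8.13 in runners. Control 1 was the lowest array, whereas control 4 and runner 1 were both at 8.18, so the groups overlapped broadly. The means were 7.84 ± 0.25 (SD) and 8.05 ± 0.18 (SD). The difference of 0.22 ± 0.12 (SE), or 1.16-fold, was the largest of the 7 and did not pass (limma adjusted p = 0.735). It was 0.30 without control 4 (limma adjusted p = 0.795) and 0.27 without runner 2 (limma adjusted p = 0.676), in both cases with an unadjusted p under 0.05, and 0.10 without runner 1 and control 1 together. Its adjusted p ran from 0.435 to 0.992 over the 19 alternatives.

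Dnajb1 encodes Hsp40, the J-domain protein that hands substrates to the inducible Hsp70. It was at 7.55, 7.98, 7.78, 7.77 and 7.64 in controls and at 7.87, 7.40, 7.57, 7.47 and 7.80 in runners. Runners 2 and 4 were the lowest arrays, while runners 1 and 5 lay above every control except control 2. The means were 7.74 ± 0.16 (SD) and 7.62 ± 0.20 (SD), a difference of -0.12 ± 0.10 (SE; limma adjusted p = 0.819). Without runner 1 and control 1 it was -0.23 with an unadjusted p under 0.05 (limma adjusted p = 0.28), and over the alternatives the adjusted p ran from 0.28 to 0.995. Hsph1 and Dnajb1, both partners of Hsp70 and both targets of HSF1, thus had means that differed in opposite directions, neither beyond the spread between arrays.

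Hspb1 encodes the small heat shock protein Hsp25, which binds unfolding proteins without ATP and protects actin filaments. It was at 6.75, 6.92, 6.87, 6.996 and 6.68 in controls and at 6.94, 6.68, 6.92, 6.65 and 7.23 in runners. The range of the controls lay inside that of the runners. The difference was 0.043 ± 0.10 (SE; limma adjusted p = 0.954), and without runner 5, the highest array, it was -0.0437.

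Hsp90aa1 encodes the inducible cytosolic Hsp90, which matures kinases and steroid receptors. It was at 8.95, 9.08, 8.91, 9.08 and 9.13 in controls and at 9.10, 8.88, 9.20, 9.05 and 9.04 in runners. It was the steadiest of the 7, and its difference was 0.026 ± 0.069 (SE; 95% interval -0.12 to 0.18; limma adjusted p = 0.958). The upper bound is a 1.13-fold rise. Another 2 probe sets, shared with the predicted genes Gm5844 and Gm12346, differed by 0.070 and 0.023.

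Hspa5 encodes BiP, the Hsp70 of the endoplasmic reticulum and the sensor that holds the unfolded protein response in check. It was at 7.98, 8.18, 8.18, 8.55 and 8.11 in controls and at 8.42, 8.14, 8.58, 8.16 and 8.31 in runners. The highest and the second highest arrays, runner 3 and control 4, came from different groups. The means were 8.20 ± 0.21 (SD) and 8.32 ± 0.18 (SD), a difference of 0.12 ± 0.11 (SE; limma adjusted p = 0.839). Without control 4 it was 0.21 with an unadjusted p under 0.05 (limma adjusted p = 0.834), and over the alternatives the adjusted p ran from 0.614 to 0.992.

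Hspd1 encodes Hsp60, the folding chamber of mitochondria. It was at 8.31, 8.42, 8.52, 8.44 and 8.40 in controls and at 8.52, 8.24, 8.64, 8.31 and 8.56 in runners. Runners held both extremes, and their SD was 0.17 against 0.076 in controls. The difference was 0.036 ± 0.080 (SE; 95% interval -0.14 to 0.21; limma adjusted p = 0.947).

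**Figure D2:**
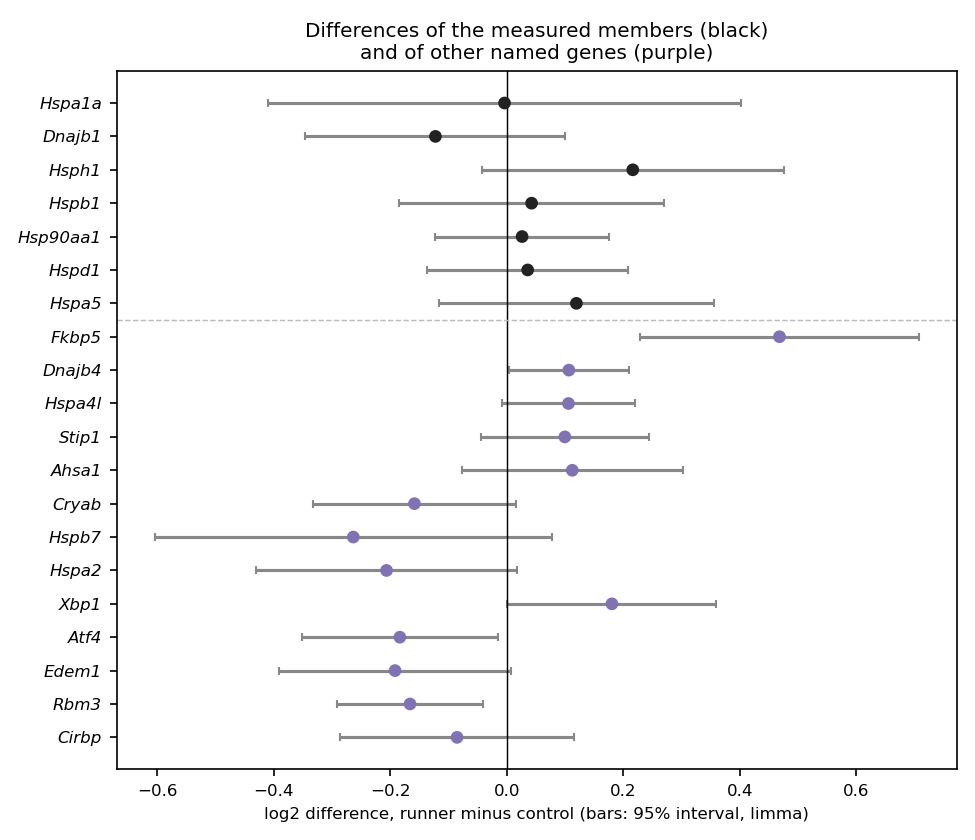
Log2 difference, runner minus control, of the 7 measured genes (black) and of a selection of the other named genes (purple), with the 95% interval of the limma fit. Every interval of the 7 spans 0, and Fkbp5 lies farthest to the right, at 0.47.

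For each of the 7 genes the SD within groups was larger than the difference between the group means. Within groups the SD of Hspa1a was 0.36, larger than that of 98.6% of all genes, and its arrays spanned 1.12, while the median gene had an SD of 0.12. Hsph1 followed with an SD of 0.22 (91.4th percentile) and Hspa5 with 0.20 (87.1st percentile). Hspb1 was at 0.19, Dnajb1 at 0.18, Hspd1 at 0.13 and Hsp90aa1 at 0.11 (37.9th percentile). Hsp90aa1, on its own probe set, was thus the only one of the 7 with an SD below that of the median gene. Its shared probe sets had SDs above the median of 0.1204. They were 0.141 in controls and 0.136 in runners (with Gm5844), and 0.121 and 0.128 (with Gm12346).

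The same arrays were high or low for most of the genes. Control 4 and runner 1 lay above the mean of all arrays in 7 of 7 genes, and runners 3 and 5 in 6 of 7. Control 1 and runner 2 lay above it in 0 of 7, and control 5 and runner 4 in 1 of 7. Averaged over the 7 genes, the deviation from each gene's mean was -0.21, 0.10, -0.049, 0.13 and -0.090 in controls 1 to 5 and 0.14, -0.17, 0.15, -0.19 and 0.19 in runners 1 to 5. High and low arrays thus occurred in both groups. The mean of the skeletal muscle genes was 8.29, 8.43, 8.45, 8.65 and 7.92 in the controls and 8.15, 7.88, 8.87, 8.07 and 8.51 in the runners, highest in runner 3 and control 4 and lowest in runner 2 and control 5. That of the brain genes was 9.33, 9.20, 9.22, 9.17 and 9.39 in the controls and 9.05, 9.46, 9.50, 9.60 and 9.31 in the runners. The part of muscle or brain RNA in the variation of the heat shock genes was not tested.

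**Figure D3:**
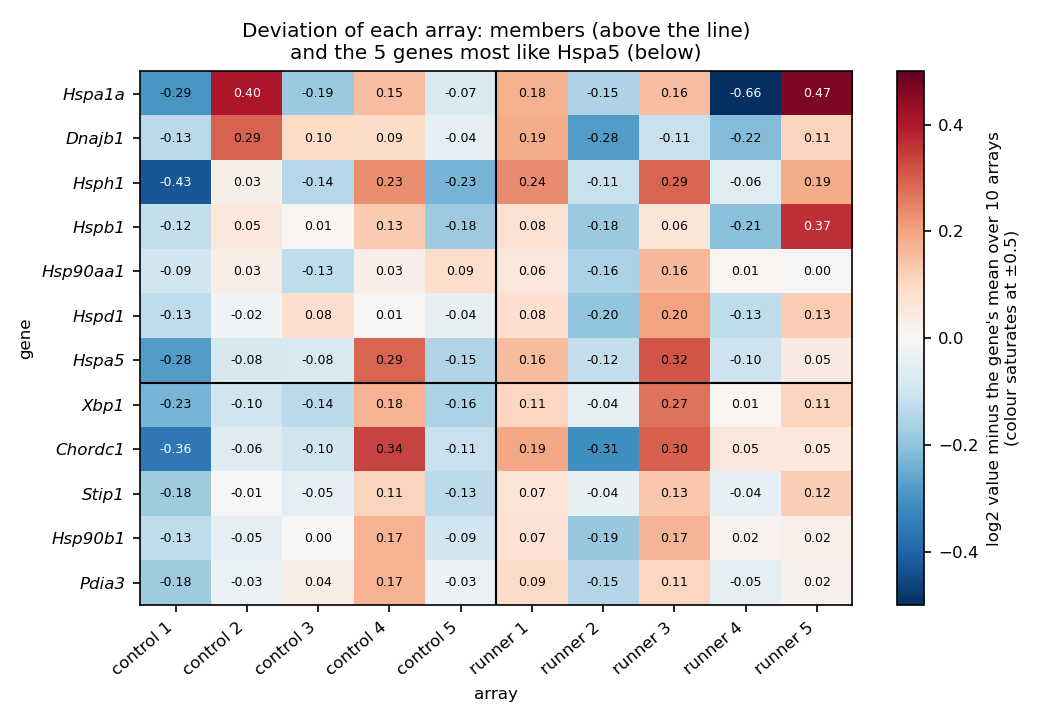
Log2 value minus the gene's mean over 10 arrays, by array (columns). The 7 measured genes are above the line, and the 5 genes outside the 10 that were most like Hspa5 are below it. Red is above the mean and blue below. Control 1, runner 2 and runner 4 are mostly blue, and control 4, runner 1, runner 3 and runner 5 mostly red.

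Across the 10 arrays all 21 pairs of the 7 genes had a positive correlation, with a median r of 0.607 and a range from 0.247 to 0.925. By a permutation test adjusted over the 21 pairs, 2 pairs passed for both Pearson's r and Spearman's rho. Hspa5 and Hsph1, an endoplasmic reticulum and a cytosolic chaperone, had r = 0.925 (permutation p = 1e-05, the smallest these permutations can give, adjusted p = 0.00021) and rho = 0.915 (permutation p = 0.00057, adjusted p = 0.012). Without the 2 arrays farthest from the median of Hspa5 their r was 0.952, and without the 2 farthest from that of Hsph1 it was 0.887. With each group's mean taken out first, r was 0.929. It lay between 0.904 and 0.942 in every alternative that changes the values or leaves out arrays.

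Hspa1a and Hspb1, a large and a small cytosolic heat shock protein, had r = 0.815 (permutation p = 0.00463, adjusted p = 0.0486) and rho = 0.794 (permutation p = 0.00832, adjusted p = 0.0454). Without the 2 arrays farthest from the median of Hspa1a, runners 4 and 5, r was 0.694. The pair lost its call in 11 of 14 alternatives, 8 of them among the 10 that leave out a single array, with adjusted p between 0.0413 and 0.169 over all 14. Among the 11 were median centring (r = 0.788, adjusted p = 0.068) and repeated quantile normalization (r = 0.796, adjusted p = 0.063). Hspa5 with Hspd1 and Hspb1 with Hspd1 passed for rho only (rho = 0.794 and adjusted p = 0.0454 each). The weakest pair was Hsp90aa1 with Hspb1, at r = 0.247. All genes of an array share its tissue, RNA and normalization, and the part of each in these correlations was not tested.

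**Figure D4:**
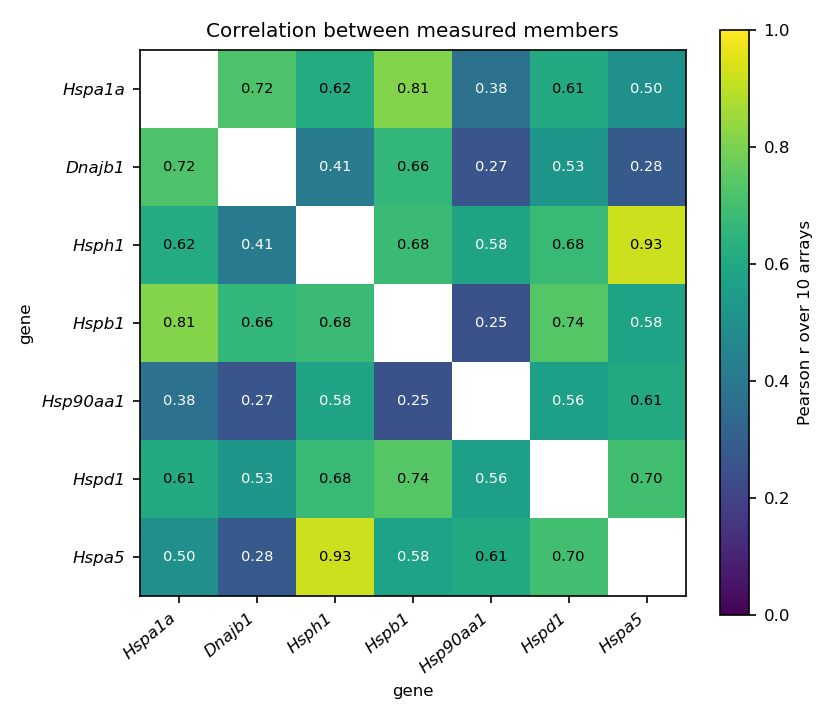
Pearson's r over 10 arrays for each pair of the 7 measured genes (colour scale and numbers). Hspa5 with Hsph1 is the brightest cell, at 0.93, and the row of Hsp90aa1 holds the lowest and darkest values.

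The 10 genes themselves, among them Hsph1 with r = 0.925 to Hspa5, were left out of the rankings that follow. Among 9730 other genes with a mean level of at least 6, those most like Hspa5 over the 10 arrays were named by their r. They were Xbp1, the transcription factor of the unfolded protein response (r = 0.939), Chordc1, an Hsp90 co-chaperone (r = 0.928), and Stip1, which joins Hsp70 to Hsp90 (r = 0.909). Hsp90b1, the Hsp90 of the endoplasmic reticulum (r = 0.903), and Pdia3, a disulfide isomerase of that compartment (r = 0.8995), came next. These values describe the ranking and carry no test. Stip1 fell to r = 0.652 with repeated quantile normalization. The genes most like the mean of Hspa1a, Dnajb1 and Hsph1 were Ufsp1, a protease gene (r = 0.932), Ankrd1, a stress-responsive gene of muscle (r = 0.912), Tgfb3, a growth factor gene (r = 0.882), Spa17 (r = 0.872) and Fam207a (r = 0.862).

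Of 101 measured chaperone, co-chaperone, heat shock factor and unfolded protein response genes, 53 were higher in runners and 48 lower, with a median difference of 0.0046. At an unadjusted p under 0.05, 4 were higher and 2 lower, and 0 passed after adjustment over all genes. Their smallest limma adjusted p was 0.479. A share of 3.21% higher and 3.92% lower over all genes is the background for these counts.

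Of the heat shock factors and their partners 6 of 7 were measured, 3 higher and 3 lower, and 1 at an unadjusted p under 0.05, Hsf2bp, a dim gene that encodes a binding partner of HSF2 (-0.12 ± 0.049 SE; limma adjusted p = 0.649). Hsf3 and Hsf5, both among the higher genes, were dim too, with control means of 1.98 and 4.41. Hsf1 itself has no probe set with its symbol alone and is not analysed here. Hsf2, the factor active in development and differentiation, had control and runner means of 6.56 ± 0.058 and 6.60 ± 0.12 (SD), which differed by 0.039 ± 0.066 (SE). Of 17 measured HSF1 targets beyond the 10 genes, 10 were higher and 7 lower, with a median difference of 0.053. The only one at an unadjusted p under 0.05 was Dnajb4, a J-domain protein. Hspa4l, an Hsp110 relative, differed by 0.11 ± 0.053 (SE) and Cryab, the small heat shock protein alpha-B crystallin, by -0.16 ± 0.081 (SE), neither of which passed.

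No partner of Hsp70 passed the test. Among 18 measured J-domain genes 12 were higher and 6 lower, and 2 were higher at an unadjusted p under 0.05. Dnajb4 was at 5.84 to 5.95 in controls and at 5.96 to 6.03 in runners, without overlap (difference 0.11 ± 0.048 SE; limma adjusted p = 0.685). It was the only 1 of the 101 genes above without overlap, beside 0.927% of all genes. Dnajc6, the neuronal auxilin that uncoats clathrin vesicles, differed by 0.21 ± 0.096 (SE; limma adjusted p = 0.686), with overlap, and the part of brain RNA in it was not tested. Of 10 other Hsp70 and Hsp110 genes 4 were higher and 6 lower, with 0 at an unadjusted p under 0.05, Hspa2 being farthest from 0 at -0.21 ± 0.10 (SE). Of 10 measured nucleotide exchange factors and cofactors of Hsp70, 5 were higher and 5 lower, with 0 at that level. All lay between -0.083 (Sil1, the exchange factor of BiP) and 0.075 (St13, a cofactor of Hsp70). The ubiquitin partner of that list, Stub1, was not measured.

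Among Hsp90 co-chaperones and other Hsp90 genes 12 of 16 were higher in runners and 4 lower, and Fkbp5 alone reached an unadjusted p under 0.05. Fkbp5 encodes a co-chaperone that lowers the hormone affinity of the glucocorticoid receptor and is itself induced by glucocorticoids. It was at 6.22, 6.35, 6.30, 6.53 and 5.90 in controls and at 6.90, 6.47, 6.76, 6.84 and 6.67 in runners. All runners except runner 2 lay above every control. The means were 6.26 ± 0.23 (SD, n = 5) and 6.73 ± 0.17 (SD, n = 5), which differed by 0.47 ± 0.11 (SE), 1.38-fold (limma adjusted p = 0.479). It did not pass, and its adjusted p ran from 0.107 to 0.937 over the alternatives. Markers of other cells also differed in mean between the groups, beside the bone-forming and cochlear markers given above. All 7 measured adipocyte genes were higher in runners, 5 at an unadjusted p under 0.05 and 0 after adjustment, and their mean lay between 5.16 and 5.53 in controls and between 5.58 and 6.11 in runners. All 8 B lineage genes were lower, 7 at that level and 0 after adjustment, with means of 6.62 to 6.99 and 6.09 to 6.59. Macrophage (9 of 9 lower, 4 at that level), neutrophil (10 of 10, 2), erythroid (6 of 6, 2) and dividing cell genes (8 of 8, 5) were lower too, with 0 after adjustment in these 4 lists. The part of these cells in the Fkbp5 values was not tested. The Hsp90 list's other named genes were Ahsa1, which stimulates the ATPase of Hsp90 (0.11 ± 0.087 SE), and Stip1 (0.10 ± 0.067 SE). Chordc1 (0.12 ± 0.13 SE) and Hsp90b1 (0.037 ± 0.077 SE), named above for their likeness to Hspa5, belong to it too.

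The small heat shock proteins other than Hspb1 had the lowest median of the chaperone lists, -0.095, with 4 higher and 5 lower of 9 and 0 at an unadjusted p under 0.05. That median is the value of Hspb3, a dim gene with a control mean of 4.40. Hspb7 (-0.26 ± 0.16 SE) and Hspb2 (-0.13 ± 0.072 SE), both muscle genes, were among the 5 lower genes, with Cryab, Hspb9 (-0.14 ± 0.090 SE) and Hspb3 (-0.095 ± 0.094 SE). The skeletal muscle genes had a median difference of -0.057, with 9 of 12 lower, and their part in these values was not tested. Chaperonin and mitochondrial genes, the partners of Hspd1, were 8 higher and 9 lower of 17, with 0 at an unadjusted p under 0.05 and differences between -0.10 and 0.085.

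Endoplasmic reticulum chaperone and unfolded protein response genes, the company of Hspa5, were 12 higher and 10 lower of 22, with a median difference of 0.013. At an unadjusted p under 0.05, 1 was higher (Xbp1) and 1 lower (Atf4). Xbp1 was at 8.19 to 8.60 in controls and 8.38 to 8.69 in runners, a difference of 0.18 ± 0.083 (SE; limma adjusted p = 0.698). Atf4, which carries the arm of the response that also answers amino acid shortage, was at 7.45 to 7.66 in controls and 7.12 to 7.53 in runners, a difference of -0.18 ± 0.078 (SE; limma adjusted p = 0.671). Edem1, which sends misfolded glycoproteins to degradation, differed by -0.19 ± 0.092 (SE; limma adjusted p = 0.704). Genes of the same response thus had means that differed in both directions, none of which passed.

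Genes known to answer to cooling and to handling of tissue were taken as 2 further lists. Of the cold-inducible RNA-binding proteins, Rbm3 was at 8.20, 8.23, 8.17, 8.16 and 8.30 in controls and at 8.08, 8.12, 8.08, 7.89 and 8.07 in runners. All runners lay below all controls, a difference of -0.17 ± 0.058 (SE; limma adjusted p = 0.607) that did not pass. Rbm3 and Dnajb4 were the 2 without overlap among 124 genes of the heat shock factor, chaperone, unfolded protein response, cooling and handling lists. Over all genes that share was 0.927%. Cirbp, the relative of Rbm3, overlapped between groups, at -0.085 ± 0.092 (SE; limma adjusted p = 0.873). Of 21 immediate early and stress genes 9 were higher and 12 lower, 1 in each direction at an unadjusted p under 0.05: Fosl2 at 0.16 ± 0.065 (SE) and Btg2 at -0.17 ± 0.077 (SE). Fos, which rises within minutes of a stimulus, was at 7.84 to 8.75 in controls and 6.98 to 8.32 in runners, a difference of -0.56 ± 0.26 (SE; limma adjusted p = 0.699). The labels do not give the time from death to freezing.

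**Figure D5:**
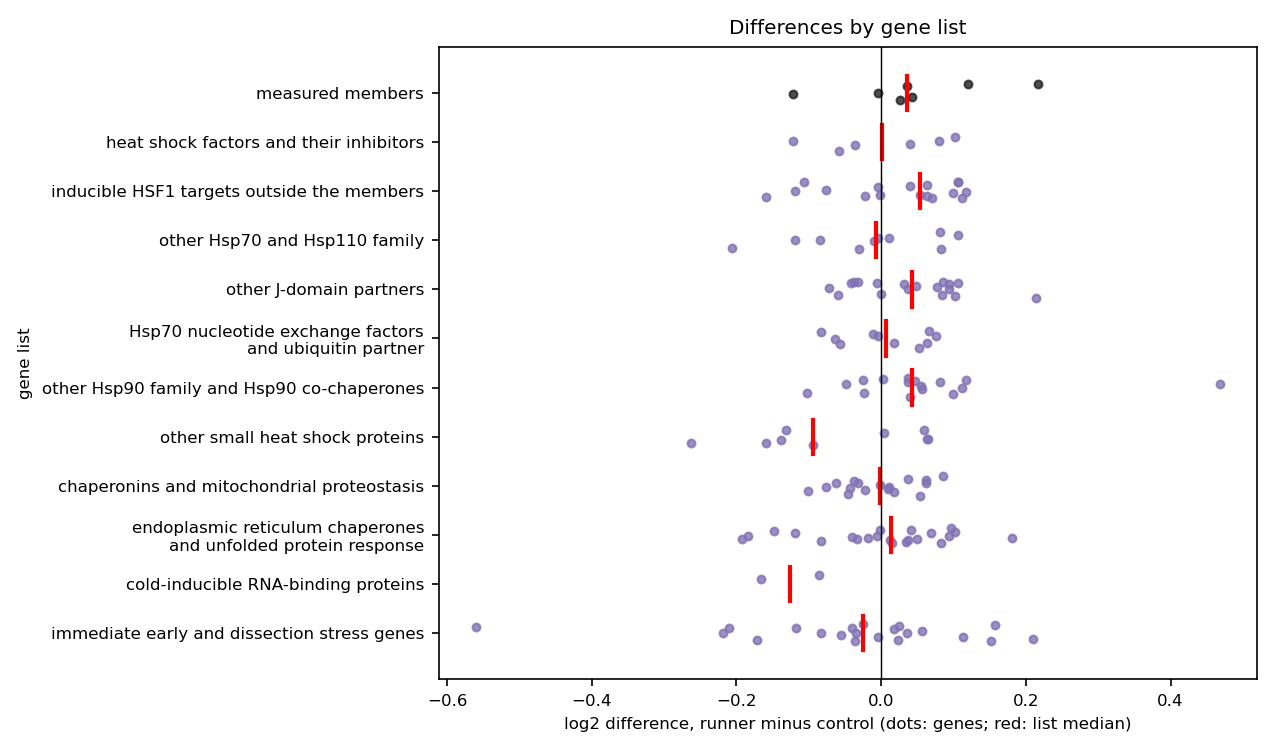
Log2 difference, runner minus control, of every measured gene (dots) by list, with the list median in red. Chaperone lists centre near 0, with Fkbp5 at 0.47 and Fos at -0.56 the most distant dots.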

How the data were processed

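Total RNA of 10 samples was put on Affymetrix arrays after WT PLUS labelling, per the labels' protocols. The values are log2 levels per probe set as deposited by the authors, made with RMA and Partek (per the submitters' processing notes, no versions). The sources used here do not give the chip or filters. RMA equalizes array distributions, which hides any shift common to most genes, and it compresses dim genes.

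Probe sets with 1 symbol were used (30130 of 39295), and for genes with several, the one of highest mean, giving 29766 genes. All were fitted with limma 3.58.1 in R 4.3.3 (a linear model on group alone with moderated variances, two-sided, Benjamini-Hochberg over all genes) and tested on simulated data. Correlations between members used 100000 permutations in Python 3.11.15 with scipy 1.17.1. Symbols and promoters are from RefSeq (GRCm38.p6).

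The members and lists were chosen with earlier results of these data known. Named beside the 10 members were the 3 genes of smallest unadjusted p in each list, any list gene past the adjusted threshold (0 genes), Hsf1 and Hsf2, Cirbp and Rbm3, and the 5 genes most like Hspa5 and the 5 most like the mean of Hspa1a, Dnajb1 and Hsph1, predicted and non-coding symbols left out. TTCNNGAA and the element of Hspa5 were added to the motif search later. Alternatives were a filter on dim genes, 2 other moderations, array weights, repeated quantile normalization, median centring, the mean of all probe sets, a replicate block and arrays left out.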

Additional observations from a re-analysis of the deposited data

Results flagged for a closer look

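In each of 90 groups of 5 arrays (45 named genes), the gap between the most distant array and its nearest neighbour was set against the whole range of the group. In 4 groups it exceeded 0.71 of the range, where chance gives about 5% of groups. None of the 7 measured heat shock genes was among them. Hspa4l was at 8.024 in control 4, above a group median of 7.89. Dnaja3, a mitochondrial J-domain protein, was at 7.7121 in control 3, above a median of 7.58. Edem1 was at 7.7533 in runner 1, above a median of 7.38. Rbm3 was at 7.8884 in runner 4, below a median of 8.08.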

How the results depend on the processing

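Differences were recomputed for 37 of the 45 named genes, leaving out the 8 named only for their likeness to others. Over 19 alternatives 0 of the 37 passed an adjusted p under 0.05, and 13 of 700 recomputed differences changed sign. Hspa1a became 0.0196 with median centring and 0.0177 with repeated quantile normalization, and ran from -0.121 to 0.1597 with 1 array left out (-0.1217 without runner 1 and control 1). Leaving out 1 array gave Hsp90aa1 -0.0107 to 0.0693, Hspb1 -0.0437 to 0.1002, Hspd1 -0.0101 to 0.0892 and Hsf2 -0.0137 to 0.0617. Without runner 1 and control 1 Hsp90aa1 was -0.0054 and Hspd1 -0.0071. That alternative also gave 3 measured genes higher in runners in place of 5, and 1 (Dnajb1) at an unadjusted p under 0.05 in place of 0. With 1 array left out, 0 to 2 of the genes reached that level (2 without control 4, 1 without runner 2), and 3 to 6 were higher in runners (3 without runner 3). Pairs of genes with an adjusted p of r under 0.05 were 1 in place of 2 with median centring, with repeated quantile normalization and without runner 1 and control 1, and 1 to 2 with 1 array left out (1 in 8 of 10 cases). Over all genes, 0 were called higher and 2 lower. The counts were 5 and 10 with array weights, 0 and 1 without moderation, 134 and 292 without runner 1 and control 1, and 0 to 44 and 2 to 55 with 1 array left out (44 and 55 without runner 1). The cause was not tested.

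Whether the replicate numbers pair the samples was looked at by the correlation of deviations from the group means. Of 5 same-numbered pairs 1 had a correlation over 0.1 (range -0.25 to 0.28). Among the controls, 0 correlated best with the runner of their number. So few pairs cannot exclude a pairing by number. With the number as a replicate block, 0 genes were called higher and 2 lower, 0 of the 7 heat shock genes passed, and Hsph1 had an adjusted p of 0.777. With 5 arrays a group, the 95% intervals of the 7 genes reach changes of 1.13-fold (Hsp90aa1) to 1.39-fold (Hsph1), and changes within them cannot be told from 0.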
